A study of Mus musculus with 18 samples.

Results

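The genes described are the cytosolic ribosomal protein genes, taken as the rows of the count table whose symbol is Rpl or Rps with a number, with or without a closing a or x, together with Rplp0, Rplp1, Rplp2 and Rpsa. Pseudogenes were left out, and 76 of 54446 rows met the rule. They are 30 genes of the small subunit, 43 of the large subunit and the 3 genes of the stalk of the large subunit. A few ribosomal proteins have other symbols (such as Rps3a1, Fau and Rack1) and were kept in a list of their own. RNA was sequenced from the neocortex of 6 mice of the outbred CD-1 stock at postnatal day 7. As embryos at E14.5 they had received plasmids by in utero electroporation, which carries DNA into cells lining the ventricle, so that only part of the tissue is transfected. The huFOXP2 group (2 mice) received human FOXP2 cDNA with Gfp, the moFoxp2 group (1 mouse) received mouse Foxp2 cDNA with Gfp, and the GFP group (3 mice) received an empty plasmid with Gfp. From each mouse, 300 µm sagittal sections were dissected into layers 5-6 (L5-6), layer 4 (L4) and layers 2-3 (L2-3), pooled by mouse, which gave 18 libraries. The labels describe the cells of L4 as GFP-positive and those of L5-6 and L2-3 as GFP-negative, and do not give the promoter of the plasmids. The labels also use the term infragranular, which means below layer 4, for L2-3 as well as for L5-6. Mice with either FOXP2 plasmid are called FOXP2 mice.

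Nearly all ribosomal proteins are needed in equal numbers, and together with ribosomal RNA they form the small subunit, which reads the messenger RNA, and the large subunit, which joins amino acids. Their messenger RNAs are short, abundant and stable, and most begin with a C followed by a run of pyrimidines (C or T), the TOP motif, through which the kinase mTORC1 controls their translation. In neurons these messenger RNAs are found in the cell body and also in axons and dendrites. FOXP2 is a forkhead transcription factor of deep-layer cortical neurons.

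The smallest library held 10111149 counts and the largest 23404528 counts. For the mouse gene Foxp2, whose row may also hold reads of the introduced cDNA, FOXP2 mice had 62.3 ± 20.0 CPM in L5-6, 44.3 ± 17.8 CPM in L4 and 31.2 ± 18.1 CPM in L2-3. GFP mice had 60.7 ± 8.06, 6.69 ± 1.79 and 4.51 ± 2.47 CPM in the same layers (SD, n = 3 each). CPM are the counts of a gene scaled to a common library size with TMM factors. The libraries of GFP mouse 1 stood apart: their chi-square per degree of freedom against the other GFP libraries of a layer was 23.5 to 54.3, against 8.89 to 12.4 for all other replicate pairs. Those of huFOXP2 mouse 1 stood apart in summed photoreceptor markers, with 8.28 to 16.3 CPM against 0.282 to 1.13 CPM in all other libraries. Summed markers of layers 5-6 were highest in L5-6 in both groups and those of layer 4 in L4. Summed markers of layers 2-3 were higher in L4 (1398 to 1529 CPM) than in L2-3 (1010.3 to 1106 CPM) in all 3 FOXP2 mice, which goes against the label. In GFP mice they stood at 1209 to 1397 CPM in L4 and 1384 to 1554 CPM in L2-3, and were higher in L2-3 in GFP mice 1 and 3 but not in GFP mouse 2.

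The starts of 6 genes are shown because each is named in a comparison and because they differ in the pyrimidine run that marks a TOP messenger RNA. Each window holds 15 bases before the annotated first base and 15 from it, from RefSeq on GRCm38.p6, on the strand of the gene. Capitals mark the longest run of C and T overlapping the stretch from 5 bases before the start to 10 bases after it.
Rpl28: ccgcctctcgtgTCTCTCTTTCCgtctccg
Rpl15: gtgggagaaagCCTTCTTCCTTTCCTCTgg
Rplp2: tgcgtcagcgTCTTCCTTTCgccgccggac
Rps27: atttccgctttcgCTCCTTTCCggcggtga
Rplp0: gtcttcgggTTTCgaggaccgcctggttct
Rps16: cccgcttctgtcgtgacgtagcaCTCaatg
The windows lie at chr7:4792950-4792979 (Rpl28, plus strand), chr14:18270972-18271001 (Rpl15, minus strand), chr7:141447636-141447665 (Rplp2, plus strand), chr3:90213634-90213663 (Rps27, minus strand), chr5:115559452-115559481 (Rplp0, plus strand) and chr7:28350674-28350703 (Rps16, plus strand). The first 4 hold an unbroken run of 9 to 17 pyrimidines over the start, while in Rplp0 and Rps16 the longest run has 4 and 3 bases. RefSeq windows were matched for 56 of the 76 genes. A run of at least 8 pyrimidines overlapped that stretch in 24 of the 56 (42.9%), against 13.0% of 27025 genes with a window, searched on the strand of the gene only. The run need not cover the first base, and in some of the 24 it lies wholly to one side of it. A match is a description of the letters at the annotated start, which need not be the start used in this tissue.

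Counts listed for these cytosolic ribosomal protein genes were a small share of each library. The share leaves out pseudogenes and ribosomal proteins with other symbols. How reads that match several places were counted is not known, so the share of the messenger RNA itself is uncertain. The 76 genes took from 1.12% of all counts (GFP mouse 2, L4) to 1.99% (moFoxp2 mouse, L2-3), and counting error on each share was at most 0.00786 percentage points on either side (95% Wilson interval, counting error only). In L5-6 the summed level was 13294 and 12534 CPM in the huFOXP2 mice, 13681 CPM in the moFoxp2 mouse, and 15525, 13228 and 13505 CPM in the GFP mice. In L4 it was 14909.6 and 13362 CPM in the huFOXP2 mice, 13768 CPM in the moFoxp2 mouse, and 16096, 12025 and 13539.7 CPM in the GFP mice. In L2-3 it was 18595 and 17521 CPM in the huFOXP2 mice, 19390.0 CPM in the moFoxp2 mouse, and 18080.5, 14921 and 15649 CPM in the GFP mice. L2-3 was the highest layer in each of the 6 mice, and the FOXP2 and GFP mice overlapped in every layer. The 78 genes of the mitochondrial ribosome, which is built separately, summed to 1983 to 2097 CPM in the FOXP2 mice and 1805 to 1898 CPM in the GFP mice in L5-6, 2162 to 2197 and 1949.5 to 2249 CPM in L4, and 2026 to 2090.0 and 1894 to 2292 CPM in L2-3.

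**Figure D1:**
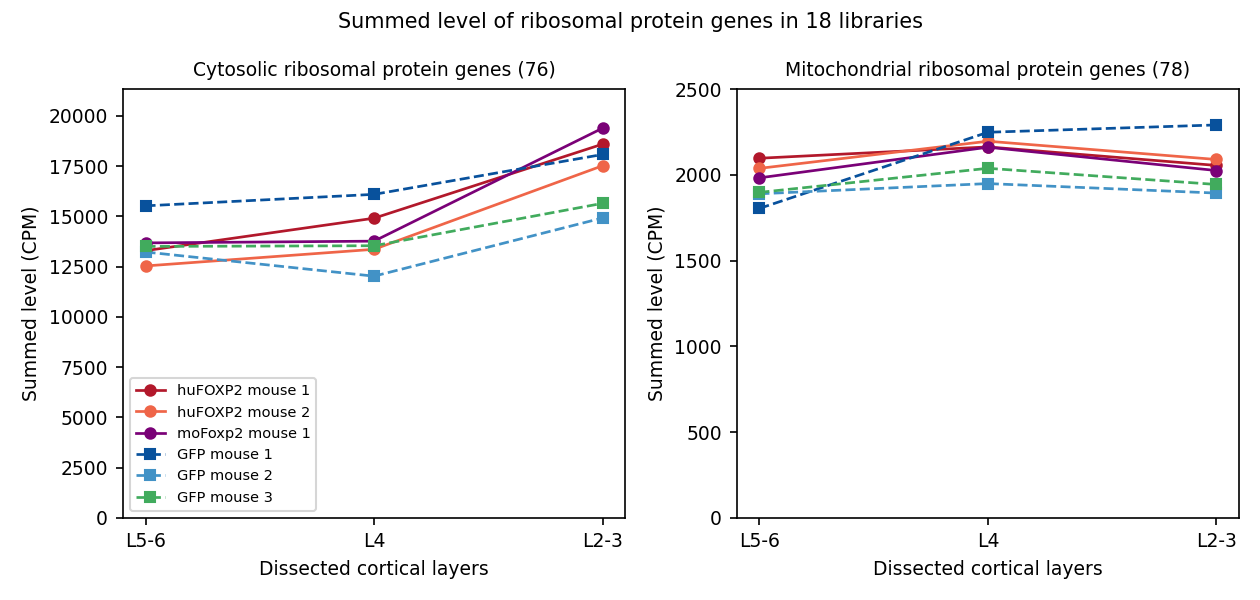
Summed level (CPM, vertical axes from 0) of the 76 cytosolic (left) and 78 mitochondrial (right) ribosomal protein genes in the dissected layers; each line joins the 3 libraries of 1 mouse, with circles for FOXP2 mice and squares for GFP mice. The cytosolic sum is highest in L2-3 in all 6 mice, at 17521 to 19390 CPM in the FOXP2 mice and 14921 to 18080 CPM in the GFP mice.

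The members differed widely in level. Divided by the length of the median annotated coding transcript, the highest mean over 18 libraries was that of Rplp1, a stalk protein that recruits elongation factors, at 1352 CPM per kilobase. Rps15 followed at 659.6 CPM per kilobase and Rps29 at 628 CPM per kilobase, both proteins of the small subunit. The median member stood at 219 CPM per kilobase. Rplp1 lies on mm10 chromosome 9 (61913284 to 61914542), and the members are spread over 19 chromosomes, with 14 on chromosome 7 and 4 on X.

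The 3 lowest members per length were Rpl13a (26.7 CPM per kilobase), known in human myeloid cells also as a silencer of inflammatory messenger RNAs, Rps10 (2.43) and Rpl24 (0.880), a protein of a bridge between the subunits. Rpl24 had 0.248 to 1.66 CPM in the 18 libraries and Rps10 had 0.918 to 2.14 CPM. Other annotated genes cover part of their exons on the same strand: 46.99% of the exon bases of Rpl24, 20.6% of those of Rps10 and 35.4% of those of Rpl13a. The overlapping genes Gm28037 (at Rpl24), RPS10-NUDT3 (at Rps10) and Gm45713 (at Rpl13a, beside a microRNA and a small nucleolar RNA gene) were listed at 0 in all 18 libraries. How reads shared by 2 genes were counted is not given in the sources used here, so the levels of these 3 members are uncertain, and the part of the overlap in them was not tested.

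In GFP mice, the layer comparison asked how the members are distributed over the dissected layers without introduced FOXP2. In L4 against L2-3, 38 of 76 members fell and 0 rose, with 75 of 76 estimates below 0 (edgeR quasi-likelihood test, mouse as a block, adjusted p over all genes tested). Of all 15952 genes tested, 7.25% fell and 3.30% rose. The estimates of the 38 ran from -0.38 to -0.21, and the 1 member with an estimate above 0 was Rps10 (0.095 ± 0.23, adjusted p = 0.858). The median log2 difference of the members was -0.22, against 0.020 for all genes tested. Among the small-subunit genes 21 of 30 fell, among the large-subunit genes 15 of 43, and among the stalk genes 2 of 3. In bulk tissue a lower share of cells with high ribosomal protein expression and less of this RNA per cell cannot be told apart. By the labels L4 is GFP-positive and the other layers are GFP-negative. In comparisons with L4, layer and GFP status therefore cannot be told apart.

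Rps27a, which encodes a ribosomal protein fused to ubiquitin, had the largest difference, -0.38 ± 0.073 (log2 fold change ± SE, adjusted p = 0.00426). In GFP mice 1, 2 and 3 it had 192, 126 and 155 CPM in L4, against 228, 183 and 199.99 CPM in L2-3. Rps27, a zinc-finger protein of the small subunit, had 159, 109 and 117 CPM in L4, against 192, 148 and 149 CPM in L2-3, a difference of -0.35 ± 0.060 (adjusted p = 0.00192). For both genes GFP mouse 1 was the highest in each layer and the layers overlapped between mice, but L4 was lower than L2-3 within each mouse. Rpl34 differed by -0.37 ± 0.085 and Rpl39, a short protein that lines the exit tunnel, by -0.31 ± 0.064 (adjusted p = 0.0130 and 0.00737).

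Of the stalk genes, Rplp0, the anchor of the stalk, fell by 0.34 on the log2 scale (SE 0.069, adjusted p = 0.00562), with 616, 452 and 519 CPM in L4 and 732, 635 and 636 CPM in L2-3 of GFP mice 1, 2 and 3. Rplp1 differed by -0.28 ± 0.075 (adjusted p = 0.0290), and Rplp2 by -0.18 ± 0.070, which did not pass (adjusted p = 0.127). Rpsa, a small-subunit protein also known as a laminin receptor, did not pass either (-0.20 ± 0.074, adjusted p = 0.105). The count of 38 rested on single mice: it was 1 without GFP mouse 2 (Rps27), 2 without GFP mouse 3 (Rps27 and Rps27a) and 51 without GFP mouse 1, and 24 and 22 without huFOXP2 mouse 1 or 2, whose libraries share the fit. It was 0 without the mouse as a block, while the median stayed between -0.27 and -0.20 over all alternatives tried.

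In L5-6 against L2-3 of GFP mice, 36 of 76 members fell and 0 rose, where 14.9% of all genes tested fell and 15.3% rose. The median of the members was -0.19, against -0.0085 for all genes tested, and 75 of 76 estimates were below 0. The estimates of the 36 ran from -0.42 to -0.18. Here 17 of 30 small-subunit, 17 of 43 large-subunit and 2 of 3 stalk genes fell. The largest difference was that of Rps14, a protein of the platform of the small subunit, at -0.42 ± 0.069 (adjusted p = 0.000410). Rps14 had 276, 249 and 256 CPM in L5-6 and 404, 311 and 341 CPM in L2-3 of GFP mice 1, 2 and 3, so the layers did not overlap. Rps3, which lies at the entry of the messenger RNA channel, had 427, 397 and 409.8 CPM in L5-6 and 541, 491 and 495 CPM in L2-3, again without overlap (-0.30 ± 0.067, adjusted p = 0.00379).

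Rplp1 differed by -0.33 ± 0.075, Rps27 by -0.32 ± 0.060 and Rplp0 by -0.27 ± 0.069 (adjusted p = 0.00438, 0.00117 and 0.00908). Rplp2 and Rpsa did not pass, at -0.14 ± 0.070 and -0.095 ± 0.073 (adjusted p = 0.163 and 0.356). The count of 36 was 9 without GFP mouse 3, 20 without GFP mouse 2, 23 without huFOXP2 mouse 2, 18 with library totals in place of TMM factors and 5 without the mouse as a block, and the median stayed between -0.20 and -0.15. Of the genes called against L2-3, 25 were called for both L4 and L5-6, which is 65.8% of the 38 and 69.4% of the 36. These comparisons share the L2-3 libraries, and the share of all genes called in both is not given here.

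In L5-6 against L4 of GFP mice, 1 of 76 members fell and 0 rose, where 14.6% of all genes tested fell and 16.4% rose, and the median was 0.040 (all genes tested 0.0053). The gene that fell was Rpl15, which encodes a protein deep in the large subunit, with 151, 176 and 174 CPM in L5-6 and 195, 194 and 198 CPM in L4 of GFP mice 1, 2 and 3 (-0.23 ± 0.069, adjusted p = 0.0219). Against L2-3, Rpl15 differed in L5-6 by -0.30 ± 0.069 (adjusted p = 0.00451), and its layers did not overlap in either comparison. The call against L4 was lost without GFP mouse 1 (-0.15, adjusted p = 0.156) and without GFP mouse 3 (-0.25, adjusted p = 0.0854). With library totals alone, 12 members passed as higher in L5-6 than in L4 and Rpl15 was not among those called.

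**Figure D2:**
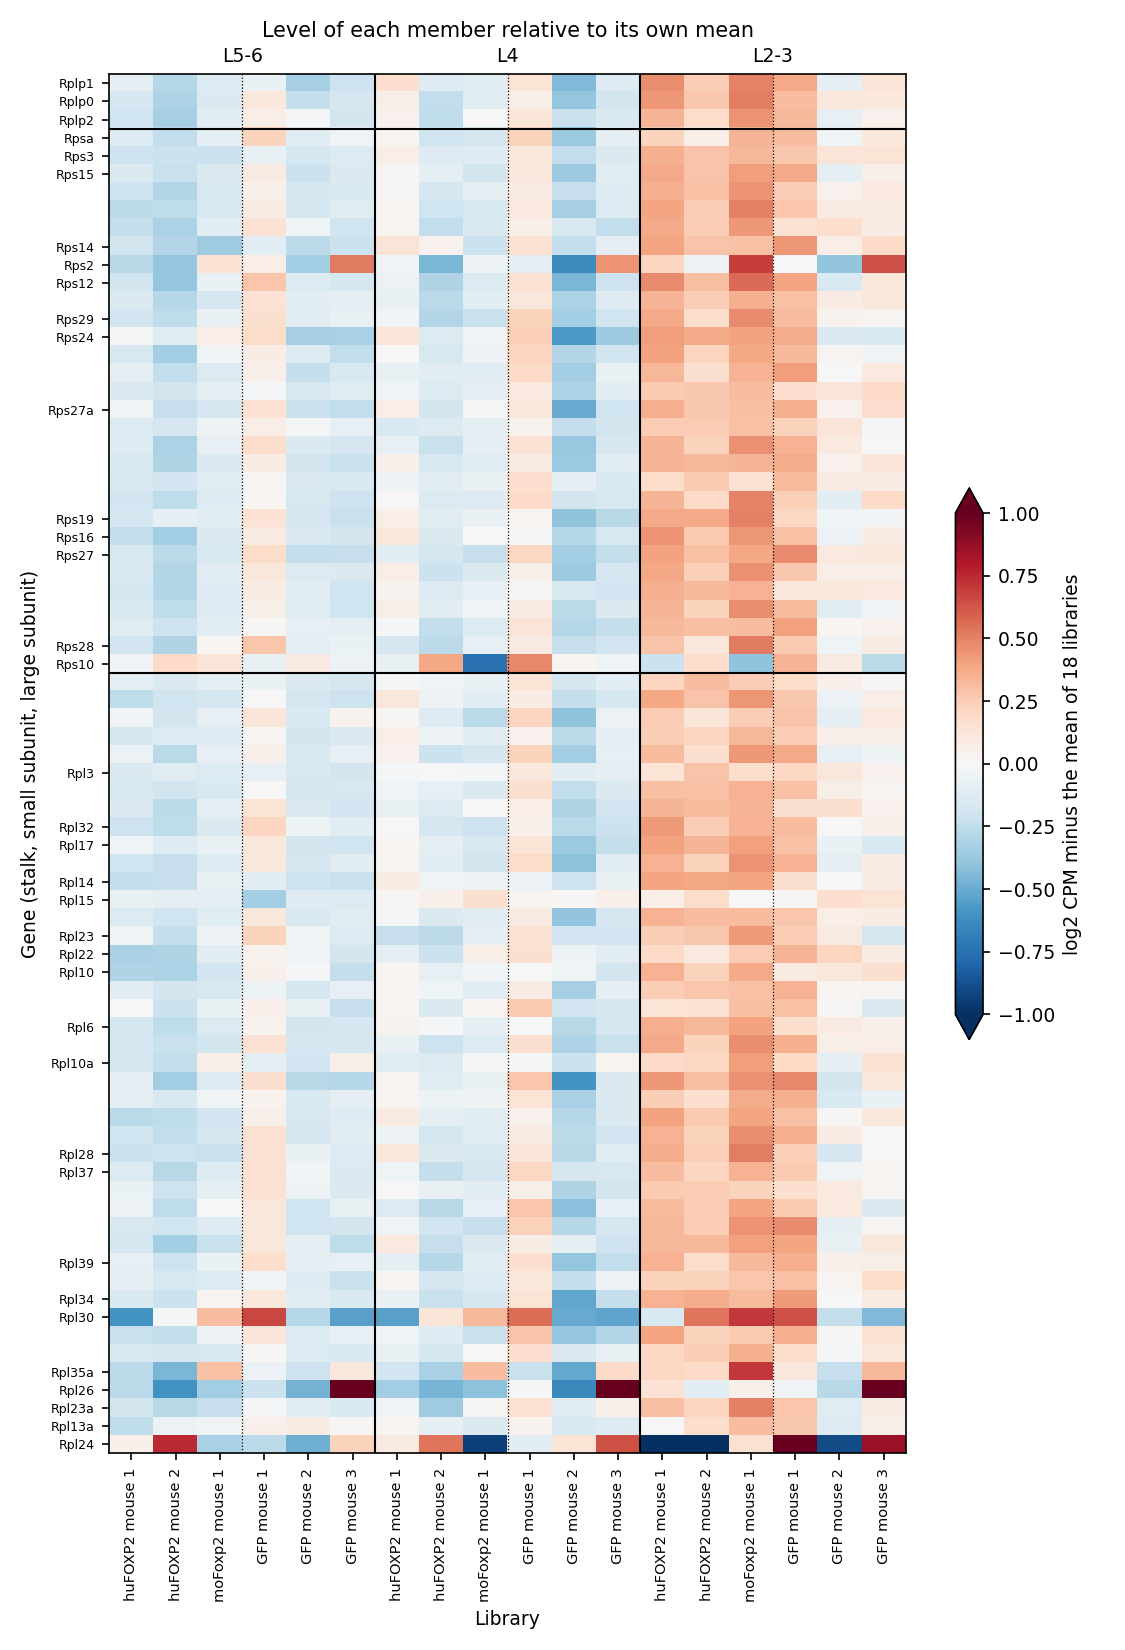
Level of each of the 76 members (rows, by stalk, small and large subunit and from high to low mean level, with the members described in the text labelled) in each library (columns, by layer, with FOXP2 mice left of GFP mice), as log2 CPM minus the mean of that gene over 18 libraries; colours end at -1 and 1. L2-3 columns are mostly red, and Rpl26, Rpl30, Rps2, Rpl24 and Rps10 depart from the common pattern. Rpl24 and Rps10 had few counts (3 to 29 and 10 to 35 a library).

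Within mice of all groups, L4 was lower than L2-3 in each of the 6 mice for 69 of 76 members, where 18.5% of all genes tested did so. L5-6 was lower than L2-3 in each mouse for 61 of 76 members (13.9% of all genes tested). L5-6 was lower than L4 in each mouse for 4 of 76 (18.7% of all genes tested).

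Other genes of the translation machinery moved in part with the members. Of 21 translation factors and other genes with TOP messenger RNAs, 12 fell in L5-6 against L2-3 of GFP mice, among them Eef1a1, which brings transfer RNA to the ribosome (-0.44 ± 0.070, adjusted p = 0.000342), and Eif3f, a subunit of an initiation factor (-0.36 ± 0.078, adjusted p = 0.00319). In L4 against L2-3, 4 of the 21 fell: Vim, which encodes an intermediate filament of glia and fibroblasts, Tpt1, Pabpc1 and Eef1a1. Rack1, a small-subunit scaffold outside the symbol rule, fell in L4 (-0.26 ± 0.062) and in L5-6 (-0.27 ± 0.062) against L2-3 (adjusted p = 0.0157 and 0.00434).

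Of the genes of the mitochondrial ribosome, 0 of 77 tested passed in L4 against L2-3 (1 at an unadjusted p under 0.05, median 0.026), and 5 fell in L5-6 against L2-3 (median -0.11). Of 26 ribosome biogenesis genes, 0 passed in L4 against L2-3 (1 at an unadjusted p under 0.05), and in L5-6 against L2-3 3 rose and 5 fell. Gnl3, a nucleolar protein, was higher (0.39 ± 0.11) and Nhp2, a protein of small nucleolar particles, lower (-0.34 ± 0.11, adjusted p = 0.0156 and 0.0315). Among members with such a run near the start, 12 of 24 fell in L4 against L2-3, and among those without one 16 of 32. In L5-6 against L2-3, 10 of 24 with a run fell and 15 of 32 without one, and the difference was not tested.

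Markers of other cell types differed between the same layers. All 9 meningeal fibroblast markers and 8 of 9 endothelial and pericyte markers fell in L4 against L2-3 of GFP mice, and 9 of 9 and 6 of 9 fell in L5-6 against L2-3. Of 9 astrocyte markers 4 fell in L4, and all 10 oligodendrocyte lineage markers rose in L5-6. Of 10 neuron markers 5 rose in L4, and in L5-6 5 rose and 2 fell. The part of these cell types in the layer differences of the ribosomal protein genes was not tested.

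Each layer was then compared between mice with and without introduced FOXP2. No member passed in L2-3, where 0.0722% of all 15241 genes tested were called. An unadjusted p under 0.05 was found for 11 of 75 members tested. The share of all genes at that unadjusted p is not given here, so the 11 have no background. With DESeq2 1 member passed there, Rpl14 (adjusted p = 0.0436). The estimates in L2-3 ran from -0.60 (Rpl26) to 0.37 (Rps19) and were above 0 for 71 of 75 members, with a median of 0.19 (all genes tested -0.0096). The median lay between 0.11 and 0.30 over all alternatives tried. For 19 of 75 members the FOXP2 mice lay above the GFP mice without overlap, as did 12.2% of all genes tested, and for 0 of 75 they lay below (8.31%).

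Rpl14, of the large subunit, had the smallest p in L2-3: 251 and 249.5 CPM in the huFOXP2 mice, 251 CPM in the moFoxp2 mouse and 213, 191 and 201 CPM in the GFP mice (0.31 ± 0.086, edgeR adjusted p = 0.145). Rps19, whose human gene is mutated in Diamond-Blackfan anaemia, had 181 and 181 CPM in the huFOXP2 mice, 198 CPM in the moFoxp2 mouse and 161, 135 and 136 CPM in the GFP mice (0.37 ± 0.11, adjusted p = 0.150). Neither gene overlapped between the groups, and neither did Rpl6 (201 ± 5.07 CPM in the FOXP2 mice and 168 ± 7.44 CPM in the GFP mice, SD, n = 3 each, edgeR adjusted p = 0.201). Without GFP mouse 1, 3 members passed: Rpl17, Rps19 and Rps24 (adjusted p = 0.0390, 0.0461 and 0.0284). Rpl17 and Rps24 were chosen after their values were seen.

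In L4, the layer described as GFP-positive, 0 of 75 members passed and 0 had an unadjusted p under 0.05 (DESeq2 also passed 0), where 0.0275% of all genes tested were called. The estimates were split, 40 above and 35 below 0, with a median of 0.0031. The smallest p was that of Rpl26, which stands by the exit tunnel (-0.83 ± 0.39, adjusted p = 0.9999), followed by Rps19 (0.17 ± 0.13) and Rps16 (0.14 ± 0.11). Without GFP mouse 3 the estimate for Rpl26 in L4 was -0.11. Rplp0 averaged 552 ± 59.3 CPM in the FOXP2 mice and 529 ± 82.2 CPM in the GFP mice, Rplp1 655 ± 78.9 and 609 ± 120.2 CPM, and Rpsa 571 ± 50.01 and 592 ± 121 CPM (SD, n = 3 each). FOXP2 mice lay above GFP mice without overlap for 1 member, Rpl14, as did 3.84% of all genes tested, and below for 0 (3.86%).

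In L5-6 0 of 75 members passed with edgeR or DESeq2, and 0 had an unadjusted p under 0.05, where 0.0196% of all genes tested were called. The estimates were below 0 for 70 of 75, with a median of -0.11 that stayed between -0.19 and -0.023 over all alternatives tried. Rpl32, of the large subunit, had 196 and 189 CPM in the huFOXP2 mice, 204 CPM in the moFoxp2 mouse and 262, 219 and 209 CPM in the GFP mice (-0.24 ± 0.12, adjusted p = 0.713). Rpl28, a large-subunit protein that budding yeast lacks, had 109 and 110.1 CPM in the huFOXP2 mice, 109 CPM in the moFoxp2 mouse and 139.8, 121 and 115 CPM in the GFP mice (-0.21 ± 0.10, adjusted p = 0.713). For both genes GFP mouse 1 was the highest and the groups did not overlap. Rpl10, which joins the large subunit late in its assembly, differed by -0.22 ± 0.11 (adjusted p = 0.713). FOXP2 mice lay below GFP mice without overlap for 11 of 75 members, against 6.68% of all genes tested, and above for 1 (6.91%).

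The difference between layers was itself tested. FOXP2 effect here means the difference between FOXP2 and GFP mice. By the labels the cells of L5-6 and L2-3 are GFP-negative. The FOXP2 effect was lower in L5-6 than in L2-3 for 37 of 76 members and higher for 0 (edgeR interaction, mouse as a block), where 8.66% of all 15952 genes tested were lower and 6.75% higher. The median difference of the members was -0.31, against -0.0017 for all genes tested, and 73 of 76 were below 0. The 37 ran from -0.55 to -0.28, and the 3 above 0, named after their values were seen, were Rpl24 (1.65 ± 0.72), Rps10 (0.28 ± 0.33) and Rpl15 (0.13 ± 0.097), none of which passed. Rpl24 and Rps10 had few counts, 3 to 29 and 10 to 35 a library. By role, 16 of 30 small-subunit, 19 of 43 large-subunit and 2 of 3 stalk genes passed. Seen within mice, the median log2 ratio of L5-6 to L2-3 over the members was -0.49, -0.49 and -0.48 in huFOXP2 mice 1 and 2 and the moFoxp2 mouse, and -0.22, -0.15 and -0.21 in GFP mice 1, 2 and 3. For 65 of 76 members the ratio in every FOXP2 mouse was below that in every GFP mouse, as it was for 17.0% of all genes tested (log2 ratio of CPM + 0.5), and for 1 member it was above (15.8% of all genes tested).

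Rpl28 had the largest difference, -0.55 ± 0.11 (adjusted p = 0.0126). Its L2-3 values were 164 and 149 CPM in the huFOXP2 mice, 181 CPM in the moFoxp2 mouse and 149.9, 113 and 126 CPM in the GFP mice, which overlapped. FOXP2 mice were lower on average in L5-6 and higher on average in L2-3. Its log2 ratio of L5-6 to L2-3 averaged -0.59 ± 0.15 in FOXP2 mice and -0.044 ± 0.13 in GFP mice (SD, n = 3 each).

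Rps12, a protein of the beak of the small subunit, differed by -0.54 ± 0.099 (adjusted p = 0.00989). In L5-6 it had 231 and 201 CPM in the huFOXP2 mice, 249 CPM in the moFoxp2 mouse and 318, 239 and 232 CPM in the GFP mice. In L2-3 it had 364 and 323 CPM in the huFOXP2 mice, 388 CPM in the moFoxp2 mouse and 346, 236 and 283 CPM in the GFP mice. The groups overlapped in both layers, but the ratios did not: -0.66 ± 0.023 in FOXP2 mice and -0.13 ± 0.15 in GFP mice.

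Rps16, whose tail reaches the peptidyl site, differed by -0.45 ± 0.088 and Rpl32 by -0.45 ± 0.089 (adjusted p = 0.0115 and 0.0118). Rps2, of the messenger RNA entry channel, differed by -0.46 ± 0.12 (adjusted p = 0.0270), and its call was lost in each fit that left out 1 mouse (adjusted p = 0.0521 to 0.0855). Among the stalk genes Rplp2 differed by -0.41 ± 0.099 and Rplp0 by -0.34 ± 0.097 (adjusted p = 0.0191 and 0.0313), and Rplp1 did not pass (-0.24 ± 0.11, adjusted p = 0.128). Rplp0 had 797 and 712 CPM in the huFOXP2 mice, 839.7 CPM in the moFoxp2 mouse and 732, 635 and 636 CPM in the GFP mice in L2-3, and 511 ± 30.5 and 555 ± 72.0 CPM in L5-6 (SD, n = 3 each). Rpsa differed by -0.27 ± 0.10 and did not pass (adjusted p = 0.0868).

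**Figure D3:**
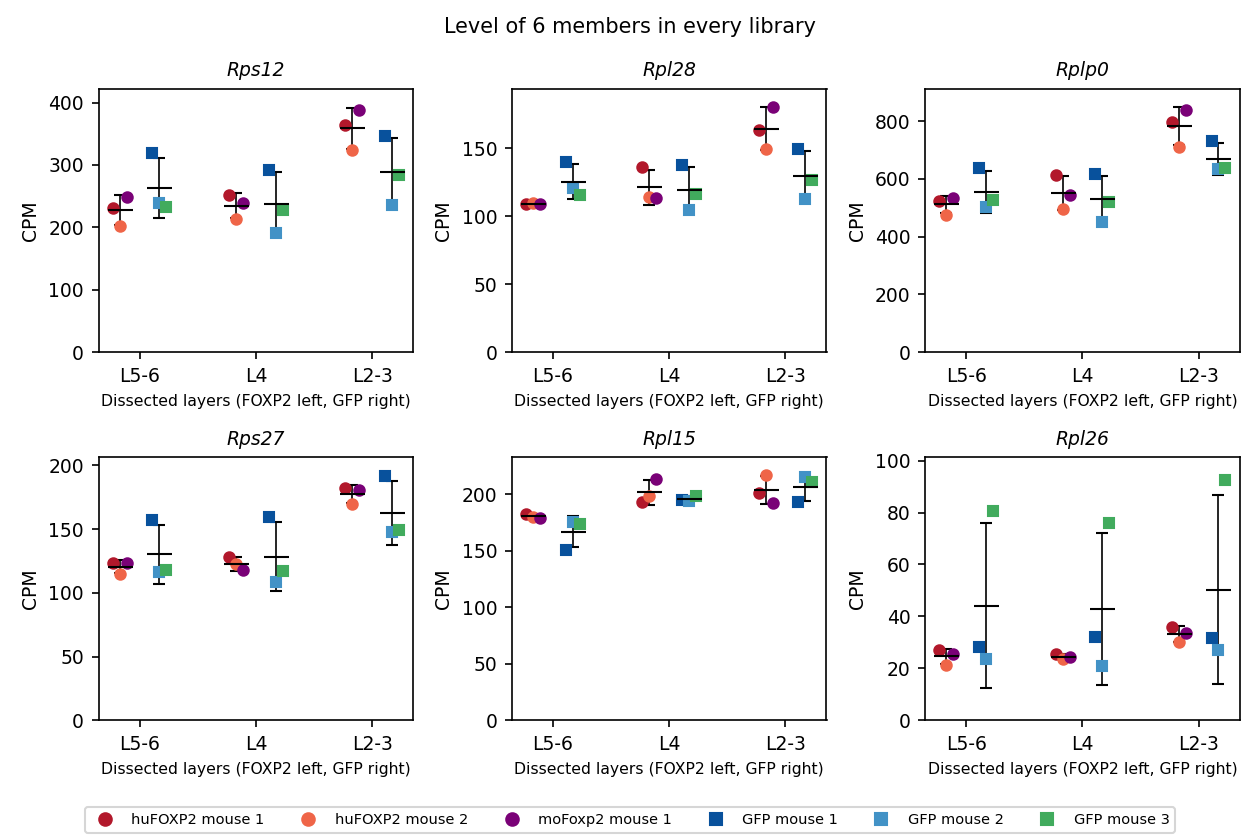
Level (CPM, axes from 0) of 6 members in every library, by layer, with FOXP2 mice (circles) left of GFP mice (squares); horizontal marks and bars are the mean and SD of 3 mice. Rps12, Rpl28 and Rplp0 are highest in L2-3 of FOXP2 mice on average, and Rpl26 is high in all libraries of GFP mouse 3 (76.1 to 92.4 CPM).

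The count of 37 fell to 0 without huFOXP2 mouse 1, 9 without GFP mouse 3, 10 without huFOXP2 mouse 2, 11 without the moFoxp2 mouse and 0 without the mouse as a block, and was 38 without GFP mouse 1. It was 53 with library totals alone, 25 without a filter on low counts and 47 with DESeq2. The median of the members stayed between -0.38 and -0.26 over all alternatives tried.

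In the libraries behind this difference, summed meningeal fibroblast markers stood at 1467 to 4539 CPM in the FOXP2 mice and 417 to 2024 CPM in the GFP mice in L2-3, and at 24.95 to 124 CPM in L4 and L5-6 of all mice. Endothelial and pericyte markers in L2-3 summed to 1026 to 1452 CPM (FOXP2 mice) and 722 to 874 CPM (GFP mice), red blood cell markers to 273 to 619 and 149 to 234 CPM, and neuron markers to 5537 to 5821 and 5895 to 6930.1 CPM. The groups overlapped for the meningeal sum and not for the other 3. Markers of layers 2-3 in the L2-3 libraries summed to 1010.3 to 1106 CPM (FOXP2 mice) and 1384 to 1554 CPM (GFP mice), and those of layer 4 to 201 to 211 and 270.5 to 446 CPM, both without overlap. In the same test of the difference, 7 of 9 endothelial and pericyte, 6 of 9 astrocyte, 4 of 10 oligodendrocyte lineage, 3 of 9 microglia, 3 of 3 tested red blood cell and 1 of 9 meningeal fibroblast markers were lower, and 5 of 10 neuron markers were higher. None of the meningeal and vascular markers was at 0 in any library. Hba-a2 was at 0 in 13 of 18 libraries, and the ependyma markers Ccdc153 and Tmem212 in 11 and 13. The part of these cell types and layers in the result was not tested.

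Of the related gene lists, the mitochondrial ribosome had 2 of 77 genes higher, Mrpl19 (0.45 ± 0.11) and Mrps31 (0.52 ± 0.14), and 0 lower (adjusted p = 0.0216 and 0.0267), with a median of 0.099. Of 21 translation factors and other TOP genes 2 were lower, Vim (-1.29 ± 0.27) and Tpt1, a growth-related protein (-0.39 ± 0.12, adjusted p = 0.0126 and 0.0379). Of 18 genes of mTORC1 and of TOP control, Mtor, its kinase, was higher (0.32 ± 0.086) and Eif4ebp1, an inhibitor of initiation that it phosphorylates, lower (-0.95 ± 0.24, adjusted p = 0.0271 and 0.01996). Of 9 paralogues tested 2 were lower, Rps4l (-0.81 ± 0.21) and Rps27l (-0.47 ± 0.14, adjusted p = 0.0232 and 0.0415), and 0 of 26 ribosome biogenesis genes passed (2 at an unadjusted p under 0.05). Among members with a pyrimidine run near the start 9 of 24 passed, and among those without one 15 of 32.

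The FOXP2 effect in L4 minus that in L2-3 gave 0 of 76 members past the threshold, where 0% of all genes tested were called. The median of the members was -0.18, against -0.0089 for all genes tested. At an unadjusted p under 0.05 there were 27 members. The share of all genes at that unadjusted p is not given here, so the 27 have no background. Within mice, the median log2 ratio of L4 to L2-3 was -0.33, -0.41 and -0.48 in huFOXP2 mice 1 and 2 and the moFoxp2 mouse, and -0.18, -0.30 and -0.21 in GFP mice 1, 2 and 3. Rpl23 (-0.38 ± 0.093, adjusted p = 0.0804), Rpl37 (-0.31 ± 0.089, adjusted p = 0.106) and Rpl23a, which helps to dock the signal recognition particle (-0.41 ± 0.12, adjusted p = 0.111), had the smallest p. With DESeq2 3 members passed: Rpl23, Rpl37 and Rps12. Rps12 is outside the rule for named genes here and was chosen after its value was seen.

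**Figure D4:**
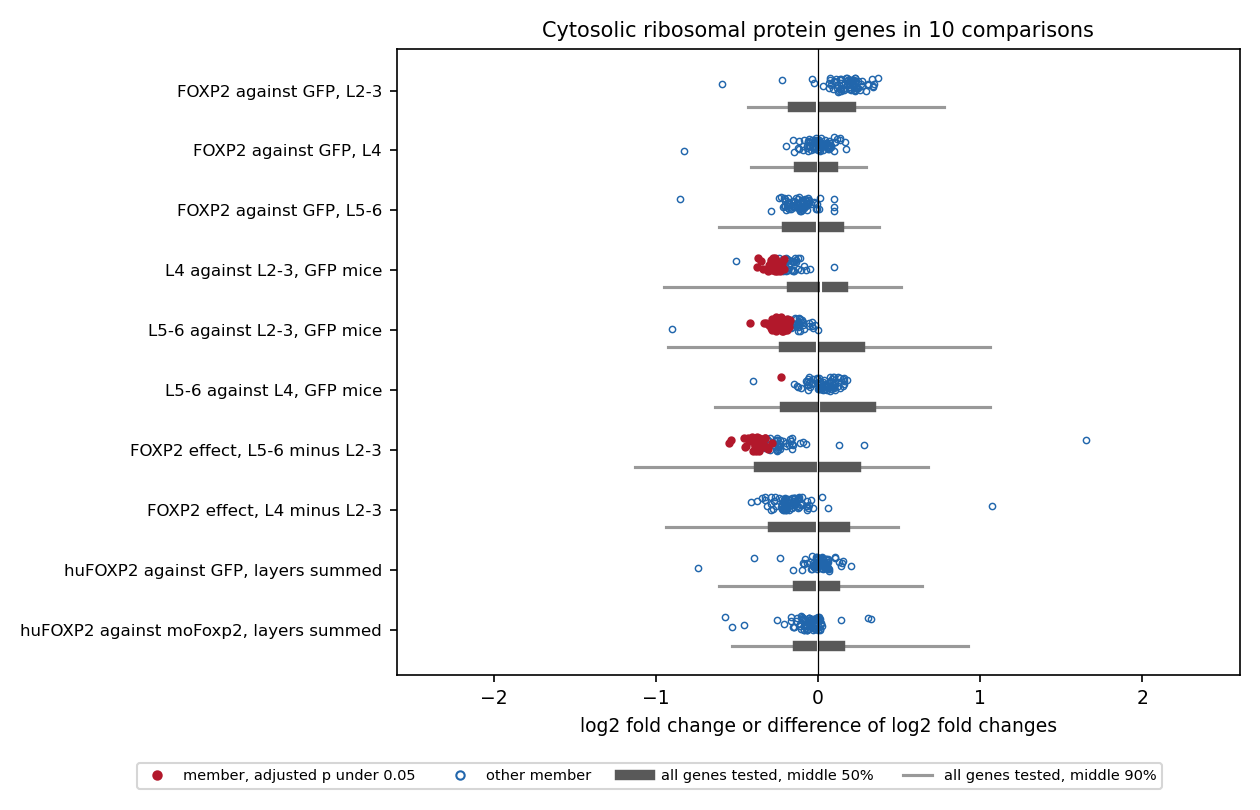
Each dot is 1 member; the horizontal axis is its log2 fold change or, for the FOXP2 effects, the difference of 2 log2 fold changes, in the 10 comparisons; filled dots have an edgeR adjusted p under 0.05, and grey bars show the middle 50% and 90% of all genes tested. Filled dots appear in 4 comparisons, with 38, 36, 1 and 37 members, all of them below 0.

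Over the summed layers of each mouse, huFOXP2 mice were set against GFP mice, and 0 of 76 passed with edgeR or DESeq2 and 0 had an unadjusted p under 0.05, where 0.0159% of all 18825 genes tested were called, and the median was 0.013. The smallest p were those of Rpl26 (-0.74 ± 0.50), Rpl14 (0.14 ± 0.11) and Rpl22 (-0.16 ± 0.12), an RNA-binding protein with a paralogue (adjusted p = 1 for each). The estimate for Rpl26 was 0.0037 without GFP mouse 3.

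The 2 species of FOXP2 were also compared. In huFOXP2 against moFoxp2 0 of 76 members passed with edgeR or DESeq2, where 0% of all genes tested were called, and 1 had an unadjusted p under 0.05. That gene was Rpl35a (-0.57 ± 0.21, adjusted p = 1), with 34.8 and 30.4 CPM in the huFOXP2 mice and 50.9 CPM in the moFoxp2 mouse in L5-6, 36.5 and 33.3 CPM against 51.7 CPM in L4, and 48.1 and 47.7 CPM against 68.2 CPM in L2-3. The moFoxp2 mouse was the higher one in each layer. Rpl10a differed by -0.21 ± 0.15 and Rps28 by -0.25 ± 0.19. With 1 moFoxp2 mouse, its spread was assumed to be that of the other groups.

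Over the 10 comparisons, 13 members passed in none, 26 in 1, 25 in 2 and 12 in 3. The 13 were Rpsa, Rps10, Rps26, Rpl10a, Rpl12, Rpl13a, Rpl21, Rpl24, Rpl26, Rpl27a, Rpl29, Rpl36a and Rpl41. Those that passed in 3, among them Rplp0, Rps16, Rpl6 and Rpl11, were each lower in L4 and in L5-6 than in L2-3 of GFP mice and with a lower FOXP2 effect in L5-6 than in L2-3. These lists were drawn up after the values were seen, and the comparisons share libraries. The shares of all genes that passed in as many comparisons are not given here, so the tally has no background.

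Most members varied more between layers than between mice, and a few did the opposite. Of the sum of squares of log2 CPM over 18 libraries, a median of 57.6% lay between layers and 26.7% between mice, and layers took the larger share in 62 of 76 members. The coefficient of variation over 18 libraries had a median of 16.1%. It was lowest for Rpl15 (8.76%), Rpl3 (10.04%), a protein near the peptidyl transferase centre, and Rpl13a (10.4%), and highest for Rpl26 (59.8%), Rpl24 (57.1%) and Rpl30 (34.01%). Rpl24 had only 3 to 29 counts a library, and the part of counting error in its value was not tested.

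Rpl26 differed by mouse in all 3 layers. In L5-6 it had 27.0 and 21.5 CPM in the huFOXP2 mice, 25.6 CPM in the moFoxp2 mouse, and 28.1, 23.5 and 80.6 CPM in GFP mice 1, 2 and 3. In L4 it had 25.5 and 23.7 CPM in the huFOXP2 mice, 24.5 CPM in the moFoxp2 mouse, and 32.1, 20.8 and 76.1 CPM in the GFP mice. In L2-3 it had 36.002 and 30.1 CPM in the huFOXP2 mice, 33.8 CPM in the moFoxp2 mouse, and 31.7, 26.9 and 92.4 CPM in the GFP mice. Only GFP mouse 3 was high, and 92.8% of the sum of squares lay between mice. The gene is on mm10 chromosome 11 (68901583 to 68906989).

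Rpl30, which also binds its own messenger RNA in yeast, had 89.2% of its sum of squares between mice. In L5-6 it had 34.4 and 51.9 CPM in the huFOXP2 mice, 64.6 CPM in the moFoxp2 mouse, and 82.9, 42.7 and 35.8 CPM in GFP mice 1, 2 and 3. In L4 it had 35.8 and 56.7 CPM in the huFOXP2 mice, 65.3 CPM in the moFoxp2 mouse, and 77.1, 36.9 and 36.3 CPM in the GFP mice. GFP mouse 1 was high and huFOXP2 mouse 1 and GFP mice 2 and 3 were low in both layers. In L2-3 the moFoxp2 mouse had the highest level of all 18 libraries, at 85.5 CPM. There the FOXP2 mice averaged 69.3 ± 20.0 CPM and the GFP mice 54.6 ± 23.3 CPM (SD, n = 3 each). Rps2 had 76.8%, Rps24 65.7% and Rpl35a 65.2% of their sum of squares between mice.

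Processed pseudogenes are copies of messenger RNA inserted back into the genome. The table holds 295 pseudogenes named for a member. Rps2-ps13 (chromosome X, 52898588 to 52899469) had 0.153 to 3.25 CPM in the libraries of GFP mouse 3 and 56.8 to 181 CPM in those of the other 5 mice. Rps2 itself was at 363 to 416 CPM in GFP mouse 3. Its coefficient of variation was 28.1% alone and 20.2% when the pseudogene was added. Rps24-ps3 stood at 21.1 to 28.0 CPM in GFP mice 2 and 3 and at 0.9746 to 2.05 CPM in the other 4 mice. Adding it changed the coefficient of variation of Rps24 from 20.1% to 16.4%.

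Rpsa-ps10 (chromosome 3, 150072658 to 150073542), named for Rpsa, differed between FOXP2 and GFP mice. It stood at 2.80 to 4.79 CPM in all 9 libraries of FOXP2 mice and at 119 to 309 CPM in all 9 libraries of GFP mice. Of the pseudogenes of members tested (14 in L5-6, 15 in L4 and 16 in L2-3), it was the 1 that passed in each layer (-6.15 ± 0.34 in L5-6, -5.74 ± 0.36 in L4 and -5.63 ± 0.32 in L2-3, edgeR adjusted p = 0.000645, 0.000398 and 0.00054). The mice are outbred, and whether this difference goes with the construct or with these particular mice was not tested. Rpsa had 552 ± 29.6 CPM in the FOXP2 mice and 629 ± 81.2 CPM in the GFP mice in L5-6, and 714 ± 70.3 and 674 ± 82.2 CPM in L2-3 (SD, n = 3 each), which overlapped in both layers. Its coefficient of variation was 14.1% alone and 22.9% with the pseudogene added. Rps26-ps1 stood at 5.99 to 10.5 CPM in huFOXP2 mouse 1 and GFP mice 1 and 2, and at 0 to 0.218 CPM in the other 3 mice. Reads of near-identical copies are uncertain, because how reads that match several places were counted is not given in the sources used here.

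**Figure D5:**
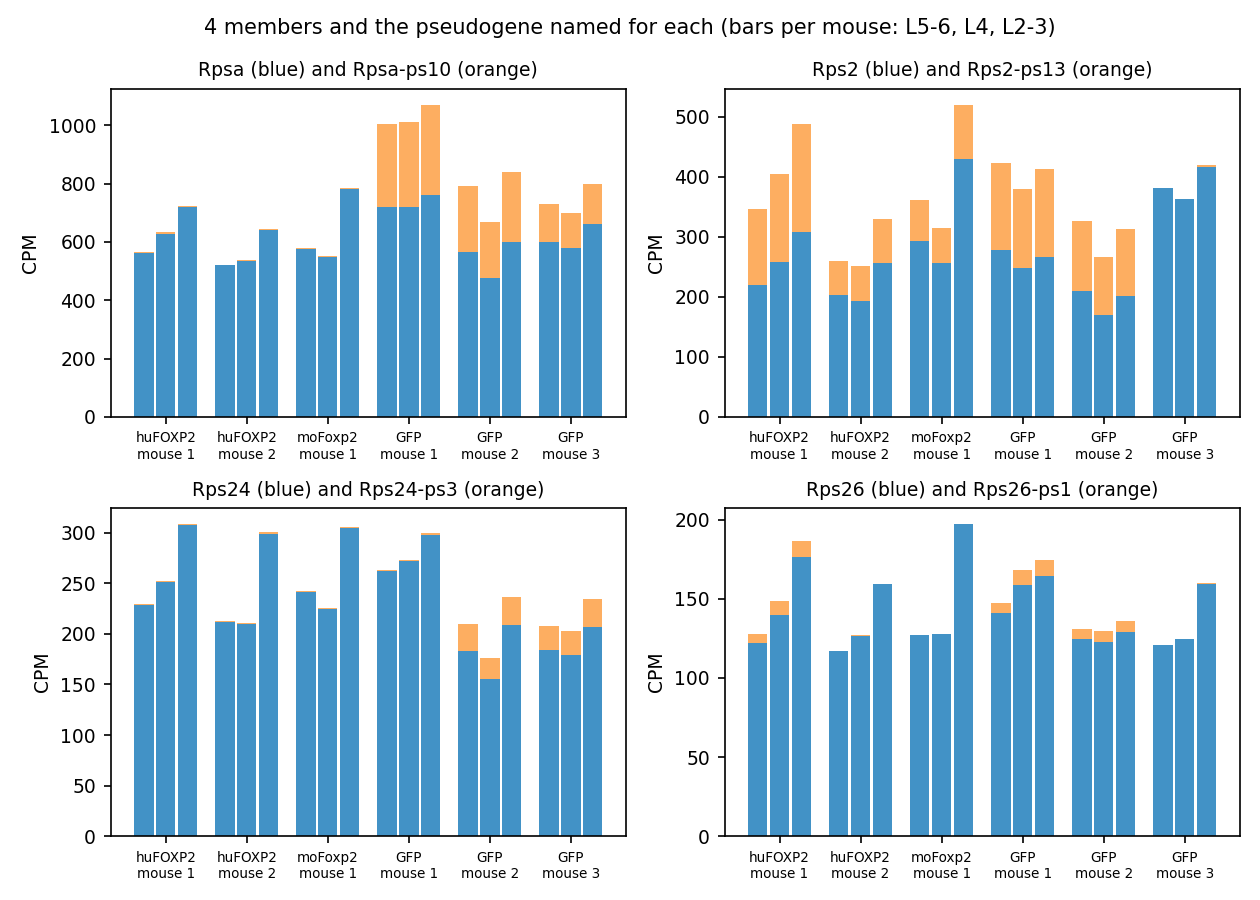
Level (CPM, axes from 0) of Rpsa, Rps2, Rps24 and Rps26 (blue) and of the pseudogene named for each (orange, stacked on top) in every library, with FOXP2 mice left of GFP mice and the bars of a mouse in the order L5-6, L4, L2-3. Rpsa-ps10 is seen in the 3 GFP mice (119 to 309 CPM), and Rps2-ps13 is at 0.153 to 3.25 CPM in GFP mouse 3.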

How the data were processed

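The authors deposited raw read counts of 54446 genes in 18 libraries, made with STAR and HTSeq on mm10 per the submitters' processing notes. Versions, gene models, use of strand and the handling of reads with several matches are likewise not given in these sources. Identifiers were matched to GENCODE M21 (GRCm38) for positions and transcript lengths. Groups were taken from the sample titles, and each mouse counted as 1 replicate. Where layers were fitted alone or summed, p-values cover the spread between these mice. With the mouse as a block, differences in level between mice are removed. Those p-values cover the spread of layer differences from mouse to mouse, pooled over FOXP2 and GFP mice.

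The deposited counts went into edgeR 4.0.16 (R 4.3.3), whose quasi-likelihood test was run with TMM factors, filterByExpr (min.count 10, min.total.count 15) and Benjamini-Hochberg adjustment over all genes tested, at a threshold of 0.05. Between FOXP2 and GFP mice each layer was fitted alone (6 libraries). Layers, and differences of the FOXP2 effect between layers, were fitted over all 18 libraries with the mouse as a block. For huFOXP2 against GFP and against moFoxp2, the counts of a mouse were summed over layers. Standard errors were obtained by dividing the log2 fold change by the root of its F statistic. The fits were also run on simulated counts that held no differences between mice. Such counts cannot show how the fits with the mouse as a block behave on these libraries. The filter removed Rpl24 within layers, which left 75 members there, and 76 elsewhere.

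Libraries of a mouse deviated together (correlation 0.259 to 0.686 over 16970 genes, above 0.1 in 18 of 18 pairs), and the labels say that layers were pooled by mouse. No 2 replicate libraries agreed within sampling noise.

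The members and the gene lists were chosen with earlier results of these data known. Named in each comparison were up to 5 members per direction with the largest change past the threshold, or the 3 of smallest p where none passed, with the stalk genes, Rpsa and the extremes of level and variation. Alternatives were RLE factors, library totals, TMM without ribosomal protein genes, no filter, DESeq2 1.42.0, pseudogene counts added to the members, leaving out each mouse, leaving out GFP mouse 1 and huFOXP2 mouse 1 together, and fits with and without a block. A few members are not reported here by name.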

Additional observations from a re-analysis of the deposited data

Results flagged for a closer look

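The difference between FOXP2 and GFP mice in cytosolic ribosomal protein genes was itself tested between layers. By the labels the cells of L5-6 and L2-3 are GFP-negative. Between L5-6 and L2-3, 37 members passed, all with a lower effect in L5-6 (edgeR interaction with the mouse as a block). Of all 15952 genes tested, 8.66% were lower and 6.75% higher. The differences of the named members were -0.55 for Rpl28, -0.54 for Rps12, -0.46 for Rps2, -0.45 for Rps16, -0.45 for Rpl32, -0.41 for Rplp2 and -0.34 for Rplp0 (log2). Within each layer alone 0 members passed, where 0.0722% of all genes tested were called in L2-3, 0.0275% in L4 and 0.0196% in L5-6. In the test of the difference, 7 of 9 endothelial and pericyte, 6 of 9 astrocyte, 4 of 10 oligodendrocyte lineage, 3 of 9 microglia and 1 of 9 meningeal fibroblast markers were lower. The tested red blood cell markers were also lower, and part of the neuron markers were higher. Summed dividing cell markers stood at 132 to 160 CPM (FOXP2 mice) and 170 to 283 CPM (GFP mice) in L5-6. Their sums in L2-3 were 186 to 208 and 161 to 180 CPM. In L2-3, summed markers of layers 2-3 stood at 1010.3 to 1106 CPM in the FOXP2 mice and 1384 to 1554 CPM in the GFP mice, and those of layer 4 at 201 to 211 and 270.5 to 446 CPM. Their part in the result was not tested. The call is from 3 FOXP2 and 3 GFP mice, and the fit without huFOXP2 mouse 1 called 0. The fit without the mouse as a block also called 0. Without GFP mouse 3, huFOXP2 mouse 2 or the moFoxp2 mouse the count was 9, 10 and 11. It was 25 without GFP mouse 2 and 38 without GFP mouse 1. In huFOXP2 mouse 1 summed photoreceptor markers stood at 8.28 to 16.3 CPM, against 0.282 to 1.13 CPM in all other libraries. What this means for the result was not tested.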

How the results depend on the processing

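Counts of members past the threshold depended on single mice and on the block, while the members' median log2 difference kept its sign under every alternative for FOXP2 against GFP in L2-3 and in L5-6, for L4 and L5-6 against L2-3, and for the FOXP2 effect between layers. It changed sign under some for FOXP2 against GFP in L4 (-0.089 to 0.13), L5-6 against L4 (-0.0028 to 0.13), huFOXP2 against GFP (-0.082 to 0.12) and huFOXP2 against moFoxp2 (-0.15 to 0.042). Leaving out 1 mouse gave 1 to 51 members for L4 against L2-3 in GFP mice (38 in all mice), 9 to 32 for L5-6 against L2-3 (36), 0 to 1 for L5-6 against L4 (1), 0 to 38 for the FOXP2 effect in L5-6 minus L2-3 (37) and 0 to 3 for FOXP2 against GFP in L2-3 (0). Without the mouse as a replicate block the counts were 0, 5, 0 and 0 for the first 4 of these. Without both GFP mouse 1 and huFOXP2 mouse 1, 22 members passed for L5-6 against L2-3 and 6 for the FOXP2 effect in L5-6 minus L2-3. Library totals alone gave 18 for L5-6 against L2-3 and 12 for L5-6 against L4. With no filter on low counts, 21 passed for L5-6 against L2-3, 0 for L5-6 against L4 and 1 (Rpl26, lower) for FOXP2 against GFP in L4 and in L5-6. Rpl26 was high only in GFP mouse 3, and 92.8% of its sum of squares lay between mice. DESeq2 gave 1 for FOXP2 against GFP in L2-3, 2 for L5-6 against L4 and 3 for the FOXP2 effect in L4 minus L2-3, and adding pseudogene counts gave 3 for L5-6 against L4. The causes were not tested.

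The huFOXP2 and GFP numbers 1 and 2 share only a number: same-numbered libraries correlated at -0.274 to 0.204, above 0.1 in 2 of 6 pairs. Fits on these mice called 0 members in each layer and over summed layers, with and without a replicate block. In huFOXP2 against GFP the estimate for Rpl26 ran from -1.04 to 0.0037 when 1 mouse was left out (0.0037 without GFP mouse 3), and was 0.0067 with that block and 0.0056 on the same mice without it. No paired analysis was possible for huFOXP2 against moFoxp2 because they share 1 number, and leaving out the moFoxp2 mouse left no comparison. Of 538 refits of 38 named results, 473 kept direction and call, 57 lost the call, 5 gained it and 3 reversed. The 38 include results named for the smallest p that had not passed. For these a refit that again did not pass was counted as kept, so the 473 do not measure how stable the calls were.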
